A study of Mus musculus with 12 samples.

Results

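The comparison asked what the VIP receptor antagonist ANT008 added to anti-PD-1 in T cells taken from pancreatic tumors. The 3 ANT008+aPD-1 mice were compared with the 3 Scram+aPD-1 mice over all 748 endogenous genes of the nCounter Metabolic Pathways panel, 6 of the 12 mice of the series. All mice were female C57BL/6 that carried a subcutaneous tumor of KPC.Luc, a luciferase-expressing mouse pancreatic ductal adenocarcinoma line, and the labels give no age of single mice, while the study's methods describe young adults. Both groups received 200 µg of anti-PD-1 antibody every 3 days, and they differed only in the peptide. Scram+aPD-1 mice were given 10 µg of a scrambled peptide daily and ANT008+aPD-1 mice 10 µg of ANT008, over 10 days. The other 6 mice received isotype IgG in place of anti-PD-1, with the scrambled peptide in Scram+IgG and the antagonist in ANT008+IgG. T cells were pulled from each tumor with magnetic beads against CD90.2, to a stated purity of 80 to 85%. The implanted tumor comes from a single cell line, and the methods do not state whether tumors were pooled.

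VIP, vasoactive intestinal peptide, is a neuropeptide that binds the G protein-coupled receptors VPAC1 and VPAC2. In T cells these receptors raise cyclic AMP, which activates protein kinase A and dampens signaling from the T cell receptor, cytokine production and proliferation. PD-1 is an inhibitory receptor that recruits phosphatases to the T cell receptor and to CD28, and anti-PD-1 prevents it from binding its ligands. Both treatments therefore act on pathways that restrain T cell activation. The panel holds no probe for VIP or for either of its receptors, so that the target of ANT008 was not measured.

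The panel counts molecules through fluorescent barcodes that hybridize to a 100-base stretch of each transcript. The first 30 bases of the stretch are given for 6 genes. The first 4, on chromosomes 9, 1, 1 and 6, are receptor genes of lymphocytes that were higher in every ANT008+aPD-1 mouse. The last 2, on chromosomes 7 and 3, encode a glycolytic enzyme and a cyclin with lower scaled counts in every ANT008+aPD-1 mouse. The cyclin gene, Ccna2, was above background in only 1 of these mice. The stretches begin at bases 430, 215, 1475, 144, 1354 and 1280 of the transcripts named in the panel definition.
Cd3g: gcattgagctaaacataggcaccatatccg
Cd247: gctttggtctgctggatcccaaactctgct
Ctla4: tggactcgaggtcctgcaccaactggcttg
Klrk1: ataagaggaagataccctatagaaaaactc
Ldha: ctgcaggcttcgattacccctgtgagcctg
Ccna2: actggatataccctggagagtcttaagcct

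The lanes of the 2 groups were of unequal depth. The endogenous genes summed to 1480466, 664792 and 93480 counts in Scram+aPD-1 mice 1 to 3 and to 5776, 268678 and 24813 with ANT008+aPD-1. Background, taken as 2 SD over the average of the 8 negative probes in each lane, lay between 9.94 and 21.4 counts and was exceeded by 517 to 648 genes with Scram+aPD-1 and by 156, 580 and 357 genes with ANT008+aPD-1. Neither the totals nor the numbers of genes above background separated the groups (exact permutation test, two-sided p = 0.2 for both, and 0.1 is the smallest p for 3 mice against 3). If every gene of a lane carried the mean count of the negative probes, background would make up 63.1% of the counts of ANT008+aPD-1 mouse 1, 19.2% of those of mouse 3 and 2.37% of those of mouse 2. Counts were divided by a lane size taken from the housekeeping genes Dnajc14, Oaz1 and Ubb. On the resulting scale, called scaled count, a single molecule was worth 36.0 in ANT008+aPD-1 mouse 1 and 12.0 in mouse 3, but 0.789 in mouse 2 and between 0.178 and 4.1 with Scram+aPD-1. The background of the lanes came to 358, 13.8 and 149 scaled counts in the ANT008+aPD-1 mice.

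**Figure D1:**
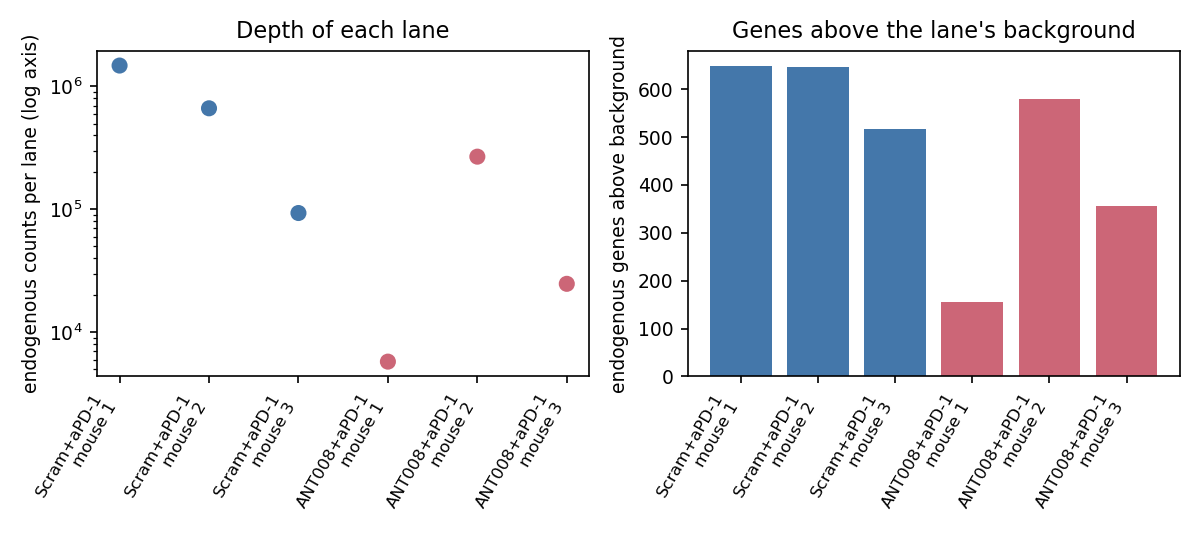
Total endogenous counts per lane (left, log axis) and number of the 748 endogenous genes above the background of the lane (right) for the 3 Scram+aPD-1 mice in blue and the 3 ANT008+aPD-1 mice in red. ANT008+aPD-1 mice 1 and 3 were the shallowest of the 6 lanes, with 156 and 357 genes above background.

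The difference between the groups was measured for 640 genes. None passed an FDR of 0.1 in either direction (0% of genes, lowest FDR 0.747, edgeR, quasi-likelihood, adjusted by Benjamini-Hochberg). At an unadjusted p below 0.05, 30 genes were higher with ANT008+aPD-1 (4.69%) and 10 were lower (1.56%). Limma also called no gene at that FDR, while DESeq2 called 5 higher, each above background in 1 or 2 of the 3 ANT008+aPD-1 lanes, with Cd163 and Il10 among them. Log2 fold changes were positive for 306 of the 640 genes, with a median of -0.04. The direction followed the detection of a gene. Of the 143 genes above background in the 3 ANT008+aPD-1 lanes, 33.6% had a positive value (median -0.23), and of the 58 genes above background in none of them 86.2% did (median 1.06). Only 2 of the 30 genes at p below 0.05 that were higher were above background in all 3 lanes.

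**Figure D2:**
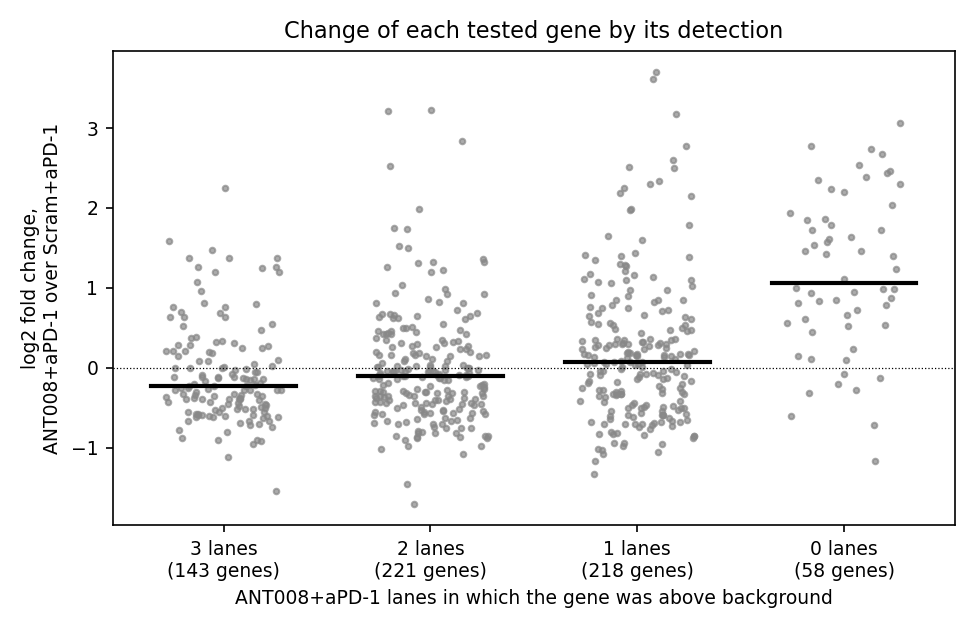
Log2 fold change of each of the 640 tested genes (grey points, ANT008+aPD-1 over Scram+aPD-1), grouped by the number of ANT008+aPD-1 lanes in which the gene was above background, with the median of each group as a black bar. The median moves from -0.23 for genes measured in 3 lanes to 1.06 for genes measured in none.

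The 143 genes that were above background in all 6 lanes have a measured level in every mouse. The background of ANT008+aPD-1 mouse 1, 358 scaled counts, enters this choice. For the 20 of the 143 genes whose controls were all under it, mouse 1 had to lie above every control, which favors higher values and holds for 5 of the 10 higher genes given next (Cd247, Klrk1, Xcl1, Ccl4 and Ctla4) and for none of the lower ones. In 10 of them (6.99%) all ANT008+aPD-1 mice exceeded all Scram+aPD-1 mice, and in 9 (6.29%) all were below them. Over all 640 genes these shares were 4.53% and 7.34%. A full separation has a p of 0.1 in the exact permutation test, the smallest for 3 mice against 3. Shares near that level do not by themselves show a difference between the groups. The 10 higher genes were Cd3d, Cd3g, Cd247, Ctla4, Klrk1, Klrd1, Xcl1, Ccl4, Ctsw and Cd14. All but Cd14 are expressed by T cells or NK cells, though not all of them only there. The 9 lower genes were Ldha, Gapdh, Hk1, Eno1, Glud1, Uqcr10, Txn1, Psma7 and Cops6, of which the first 4 encode enzymes of glycolysis. The separation depended on the scaling. With total endogenous counts as the lane size all 10 higher genes and 2 of the 9 lower genes were still separated. With the scaling by trimmed mean of M-values (TMM) 5 and 2 were, and with the mean of the negative probes subtracted 8 and 8. All housekeeping genes as the scale left 7 and 5 separated, and scaling by positive controls or no scaling left none of the 10 or the 9. Without ANT008+aPD-1 mouse 1, 25 of 351 genes lay above (7.12%) and 31 below (8.83%). The 10 and the 9 genes were among them by construction, since leaving out a mouse cannot undo a separation.

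**Figure D3:**
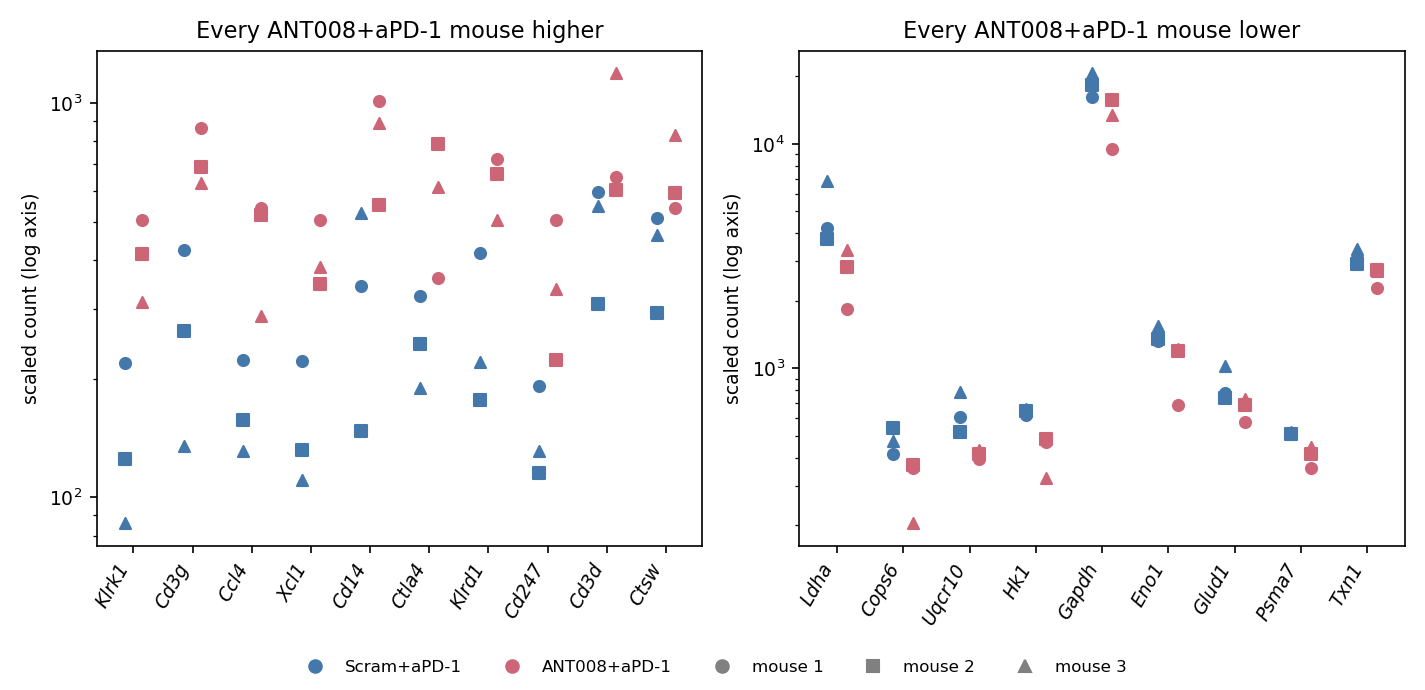
Scaled counts (log axis) of the 10 genes in which all ANT008+aPD-1 mice (red) exceeded all Scram+aPD-1 mice (blue), left, and of the 9 genes in which all were below them, right, among the 143 genes above background in all 6 lanes. Circles, squares and triangles are mice 1, 2 and 3, and genes are ordered by the size of the log2 fold change, from 1.48 for Klrk1 and -0.88 for Ldha at the left of each panel.

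The genes of the T cell receptor complex were higher with ANT008+aPD-1, without passing the test. CD3 gamma, delta, epsilon and zeta are the chains that carry the signal of the T cell receptor into the cell. Cd3g, the gamma chain, had 424, 264 and 135 scaled counts with Scram+aPD-1 (mice 1 to 3) and 865, 690 and 626 with ANT008+aPD-1, the first of which rests on 24 raw counts. All 3 treated mice were above the highest control, and the log2 fold change was 1.38 (SE 0.99, FDR 0.751). Cd247, the zeta chain, had 192, 115 and 131 scaled counts against 505, 223 and 337, a log2 fold change of 1.19 (SE 0.634, FDR 0.751). Here too the groups did not overlap, and the deepest ANT008+aPD-1 lane, mouse 2, was the lowest of its group. Cd3d, the delta chain, had 595, 309 and 549 scaled counts against 649, 603 and 1190, with a log2 fold change of 0.75 (SE 0.58, FDR 0.751). Cd3e, the epsilon chain, had 273, 163 and 69.7 against 288, 388 and 289 (log2 fold change 0.93, SE 0.925, FDR 0.822), where mouse 1 was below its background and exceeded the highest control by less than 1 molecule. The coreceptor chain Cd8b1 had a log2 fold change of 1.58 (SE 0.914, FDR 0.751), with 100, 57.3 and 65.6 scaled counts against 360, 96.3 and 289, and its groups overlapped. Lck, the kinase that starts T cell receptor signaling, had overlapping groups and a log2 fold change of 0.47 (SE 0.679, FDR 0.883). Zap70, the kinase that docks on the phosphorylated CD3 chains, differed by 0.15 (SE 0.655, FDR 0.962) and the phosphatase CD45, encoded by Ptprc, by 0.28 (SE 0.518, FDR 0.905). The other coreceptor genes, Cd8a and Cd4, had log2 fold changes of 0.31 and -0.11, and Lat and Plcg1 had 0.02 and -0.33. Of 14 genes of the CD3 complex and proximal signaling 12 had positive values (median 0.48), beside 306 of all 640 genes.

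Co-stimulatory receptors lay in the same direction. Cd28, whose product delivers the second signal for T cell activation and is a target of PD-1, had 446, 210 and 918 scaled counts with Scram+aPD-1 and 973, 658 and 1420 with ANT008+aPD-1. The groups overlapped at a single point, since mouse 2 of the treated group was below mouse 3 of the controls, and the log2 fold change was 0.96 (SE 0.603, FDR 0.751). Icos, a CD28 relative that appears on activated T cells, had 225, 111 and 57.4 scaled counts against 324, 367 and 229 (log2 fold change 1.20, SE 0.756, FDR 0.751). Cd27, a co-stimulatory receptor of the TNF receptor family, had 115, 78.5 and 61.5 against 180, 163 and 156 (log2 fold change 0.92, SE 0.784, FDR 0.768). Both genes were separated between the groups, and for both ANT008+aPD-1 mouse 1 was below its own background. Cd40lg, the T cell ligand that licenses antigen-presenting cells, had a log2 fold change of 0.17 (SE 0.705, FDR 0.962). All 5 co-stimulatory genes had positive values (median 0.96).

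Inhibitory receptors differed among themselves. Ctla4, which competes with CD28 for its ligands, had 324, 245 and 189 scaled counts against 360, 788 and 614, a log2 fold change of 1.25 (SE 0.704, FDR 0.751). The mice were separated by a wide margin in mouse 2 and by about 1 molecule in mouse 1, and not with TMM, all housekeeping genes as the scale or background subtracted. Tigit had 179, 97.0 and 41.0 scaled counts against 288, 189 and 144 (log2 fold change 0.85, SE 0.862, FDR 0.822), with mouse 3 inside the range of the controls. Pdcd1, which encodes PD-1 itself, the receptor blocked in both groups, had 470, 262 and 943 against 469, 408 and 902 and a log2 fold change of 0.10 (SE 0.665, FDR 0.978). The interval of this value, from -1.35 to 1.55, is too wide to say that Pdcd1 was equal in the groups. Lag3 had a log2 fold change of 0.54 (SE 0.649, FDR 0.831), the PD-1 ligand gene Cd274 one of -0.16 (SE 0.511, FDR 0.946) and the other ligand, Pdcd1lg2, one of 0.79 (SE 0.629, FDR 0.757). Of the 7 inhibitory receptors and ligands 6 had positive values (median 0.56).

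The list of 13 genes for T cell receptor activation and co-stimulation was drawn up in the study from these mice, so its direction is not independent evidence. All 13 members had a positive log2 fold change, with a median of 0.93 beside -0.04 over all 640 genes, and none passed the test. In 7 of the 13 the treated mice were all above the controls, beside 4.53% of all genes, and of these Cd3d and Ctla4 were not separated with TMM or with all housekeeping genes as the scale. For Cd3e, Icos and Cd27, also among the 7, ANT008+aPD-1 mouse 1 was below its own background. ANT008+aPD-1 mouse 2, the only deep lane of its group, lay above all 3 controls for 8 of the 13 genes and below them for none. Over all 640 genes mouse 2 lay above the controls for 63 (9.84%) and below them for 253 (39.5%). With only mouse 2 set against the 2 deepest Scram+aPD-1 lanes, 12 of the 13 values were positive and the median was 0.54, beside -0.20 over all genes. In each IgG group the lane of mouse 1 carries a flag in the deposited counts and was kept. The same 4-group fit gave the list a median of 0.01 for ANT008+IgG against Scram+IgG, which involves none of these 6 lanes. The difference between both medians was not tested as a list, and no member passed the interaction test of single genes.

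Among cytokines and cytotoxic genes, 10 of 11 had positive values (median 0.77), and none passed the test. Fasl, which encodes the death ligand of T cells and NK cells, had 71.5, 47.6 and 77.9 scaled counts with Scram+aPD-1 and 324, 123 and 253 with ANT008+aPD-1. The groups were separated, also by the deep mouse 2, although mouse 1 was below its background, and the log2 fold change was 1.73 (SE 0.62, unadjusted p = 0.0162, FDR 0.747). Lta, which encodes lymphotoxin alpha, had 44.3, 20.6 and 49.2 against 396, 41.0 and 193, a log2 fold change of 2.25 (SE 0.789, FDR 0.747), and mouse 2 lay within the controls. Ifng, the cytokine of type 1 T cells, had 87.9, 69.7 and 49.2 against 252, 197 and 84.2 (log2 fold change 1.29, SE 0.954, FDR 0.751), above background only in mouse 2. The background of mice 1 and 3 sets only an upper bound there, and the value of mouse 3 lay within the controls. Il2, the T cell growth factor, and Il4 had log2 fold changes of 2.52 (SE 0.95, FDR 0.751) and 2.60 (SE 1.183, FDR 0.751), both above background in only 1 treated lane. In mouse 2 their scaled counts were 18.1 and 13.4, inside the range of the controls. Tnf had 261, 102 and 205 scaled counts against 360, 205 and 289, overlapping groups and a log2 fold change of 0.53 (SE 0.52, FDR 0.822).

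The granule genes showed smaller values than Fasl, Lta, Ifng, Il2 and Il4, though Gzma and Ctsw had larger ones than Tnf. Granzymes and perforin are the proteins with which cytotoxic lymphocytes kill their targets. Gzma had 1230, 222 and 1400 scaled counts against 1190, 1290 and 2350 and a log2 fold change of 0.77 (SE 0.654, FDR 0.768). Gzmb had a log2 fold change of 0.38 (SE 0.902, FDR 0.943), Prf1 of -0.02 (SE 0.666, FDR 0.997) and Nkg7 of 0.32 (SE 0.633, FDR 0.905), and the groups overlapped for all of these. Ctsw, a cathepsin of cytotoxic lymphocytes, had 511, 294 and 463 scaled counts against 541, 592 and 830, a gap between the groups of less than 1 molecule in mouse 1 (log2 fold change 0.64, SE 0.587, FDR 0.782).

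The NK cell list holds 3 receptor genes, some of which activated CD8 T cells also use, and the chemokine gene Xcl1, and all 4 had positive values (median 1.28). Klrk1, which encodes the activating receptor NKG2D, had 219, 125 and 86.1 scaled counts with Scram+aPD-1 and 505, 414 and 313 with ANT008+aPD-1 (log2 fold change 1.48, SE 0.947, FDR 0.751). Klrd1, the CD94 partner of NKG2 receptors, had 416, 177 and 221 against 721, 659 and 505 (log2 fold change 1.20, SE 0.855, FDR 0.751). Every treated mouse, including the deep lane, was above every control for both. Xcl1, a chemokine of CD8 T cells and NK cells that attracts cross-presenting dendritic cells, had 222, 132 and 111 against 505, 348 and 385 (log2 fold change 1.37, SE 0.776, FDR 0.751). Ncr1, a receptor more restricted to NK cells, had overlapping groups and a log2 fold change of 0.55 (SE 0.574, FDR 0.822). Cd244a, a receptor of NK cells and CD8 T cells, had 248, 149 and 352 scaled counts against 577, 290 and 481 (log2 fold change 0.81, SE 0.505, FDR 0.751), with mouse 2 inside the range of the controls.

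The chemokines were split, with positive values for 5 of 7 (median 0.68). Ccl4 had 223, 157 and 131 scaled counts against 541, 519 and 289 (log2 fold change 1.38, SE 0.89, FDR 0.751) and was separated between the groups. Ccl5, a chemokine of activated T cells and NK cells, had 1300, 836 and 656 against 1190, 3030 and 2410 (log2 fold change 1.26, SE 0.925, FDR 0.751), where mouse 1 alone overlapped the controls. The interferon-induced Cxcl9, which recruits CXCR3-bearing T cells, had the opposite sign, with 2750, 1040 and 2060 against 541, 1290 and 1240 and a log2 fold change of -0.91 (SE 0.58, FDR 0.751). Cxcr6, a homing receptor of tissue T cells, had a log2 fold change of 0.68 (SE 0.739, FDR 0.822) and Ccl2 one of -0.05 (SE 0.424, FDR 0.981).

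Of the regulatory T cell genes, Foxp3, the factor that defines the lineage, had 30.4, 28.5 and 32.8 scaled counts against 72.1, 32.4 and 12.0 and a log2 fold change of 0.07 (SE 0.594, FDR 0.981). It was above background in mouse 2 only, where it lay within the controls. Il2ra, the high-affinity IL-2 receptor chain of regulatory and activated T cells, had 114, 69.1 and 115 against 288, 149 and 337, with a log2 fold change of 1.33 (SE 0.547, unadjusted p = 0.032, FDR 0.751). Its groups did not overlap, but mouse 1 of the treated group was below its background of 358 scaled counts. Il10, an inhibitory cytokine, had 14.2, 8.19 and 32.8 against 252, 32.4 and 120 (log2 fold change 2.77, SE 0.797, FDR 0.747), but only mouse 2 exceeded its background, and it lay within the controls. All 4 tested genes of the regulatory list had positive values, with a median of 1.29.

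The shares of counts taken by cell type markers restate in part the genes above, since the NK list is Klrk1, Klrd1, Xcl1 and Ncr1 and the T cell list holds the CD3 chains. The panel holds 9 of the T cell markers looked for, without CD90 itself, and all 9 were above background in every lane except ANT008+aPD-1 mouse 1, with 6. They made up 1.16%, 0.815% and 0.662% of the endogenous counts with Scram+aPD-1 and 2.08%, 1.67% and 1.72% with ANT008+aPD-1. The 95% exact binomial intervals, which cover counting error only, ran from 1.73% to 2.48% in mouse 1 and from 1.62% to 1.72% in mouse 2, so that no treated mouse overlapped a control. After the mean of the negative probes was taken off, the ranges were 0.634% to 1.16% and 1.68% to 3.57%. The 4 NK markers followed, from 0.140% to 0.356% with Scram+aPD-1 and from 0.431% to 0.883% with ANT008+aPD-1. The 12 myeloid markers made up 1.13% to 2.92% with Scram+aPD-1 and 2.53% to 3.12% with ANT008+aPD-1, and overlapped. In the IgG groups the T cell share ran from 0.337% to 2.11%, wider than the distance between the anti-PD-1 groups. Its highest values, 2.11% in Scram+IgG mouse 1 and 1.46% in ANT008+IgG mouse 1, came from lanes flagged in the deposited counts. The IgG lanes without a flag ran from 0.337% to 0.78%. In these bulk isolates a larger number of T cells and more RNA of these genes per T cell cannot be told apart, and the part of the T cell share in the differences of single genes was not tested.

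**Figure D4:**
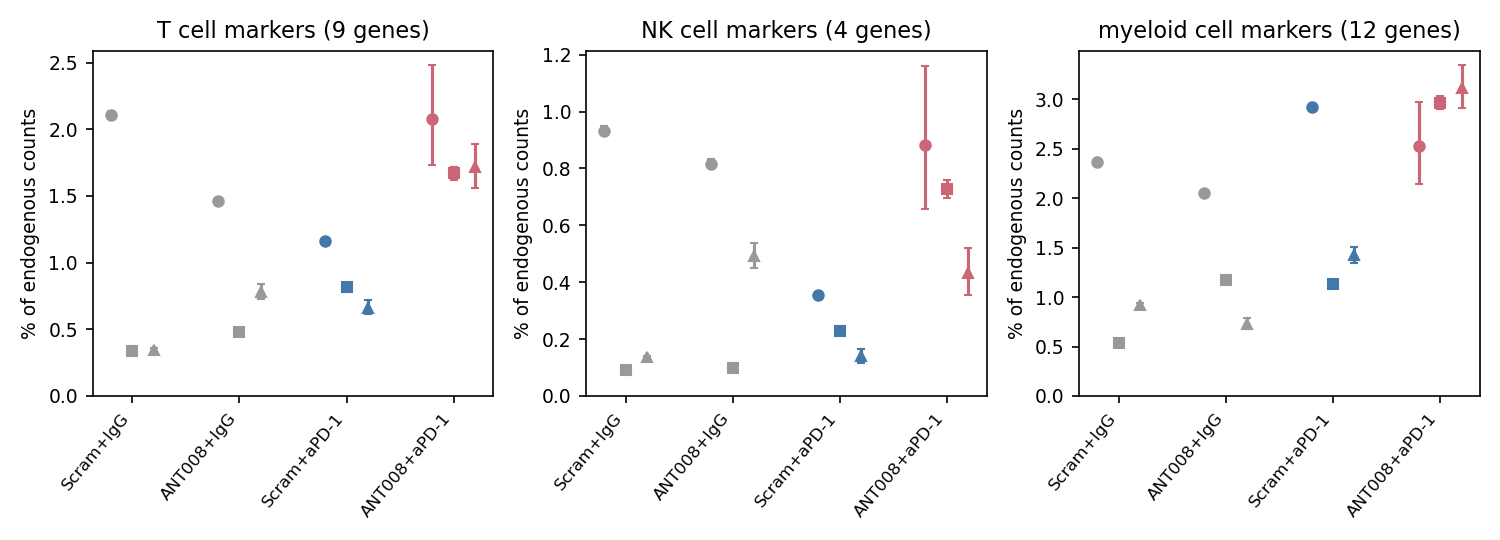
Share of the endogenous counts (%) taken by 9 T cell, 4 NK cell and 12 myeloid marker genes in each of the 12 mice, with 95% exact binomial intervals for counting error. Circles, squares and triangles are mice 1, 2 and 3. The ANT008+aPD-1 mice (red) lie above the Scram+aPD-1 mice (blue) for the T cell and NK cell markers, and the IgG groups (grey) span both. The highest IgG shares of these markers come from the flagged lanes of mouse 1.

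Myeloid genes were measured in the same isolates. Cd14, the lipopolysaccharide co-receptor of monocytes and macrophages, had 344, 147 and 525 scaled counts against 1010, 551 and 890, and every treated mouse was above every control. The log2 fold change was 1.26 (SE 0.513, unadjusted p = 0.0301, FDR 0.751). The macrophage marker Cd68 had overlapping groups and a log2 fold change of -0.24 (SE 0.651, FDR 0.946), and Arg1, the arginase of suppressive myeloid cells, had 3730, 652 and 2390 against 1870, 3040 and 4960 (log2 fold change 0.55, SE 0.765, FDR 0.873). Cd163, a scavenger receptor of macrophages, had the largest value of the list, 3.62 (SE 1.264, FDR 0.747), but exceeded background in mouse 3 only. Of the 12 myeloid markers 9 had positive values, with a median of 0.39, and none passed the test. The B cell markers were near background. Of 6 on the panel 3 were tested, and in ANT008+aPD-1 mouse 1 none was above background.

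Of the 18 enzymes and transporters of glycolysis 12 had negative values, with a median of -0.56, and none passed the test. Ldha, which encodes the enzyme that turns pyruvate into lactate, had 4230, 3770 and 6820 scaled counts with Scram+aPD-1 and 1840, 2820 and 3380 with ANT008+aPD-1. Every treated mouse was below every control, and the log2 fold change was -0.88 (SE 0.4, unadjusted p = 0.0493, FDR 0.751). Hk1, the hexokinase that starts the pathway, had 622, 648 and 660 against 469, 484 and 325 (log2 fold change -0.60, SE 0.3, FDR 0.751). Gapdh had 16200, 18300 and 20600 against 9440, 15600 and 13400 (log2 fold change -0.52, SE 0.346, FDR 0.751), and Eno1, enolase, had 1330, 1350 and 1540 against 685, 1190 and 1220 (log2 fold change -0.44, SE 0.345, FDR 0.757). The treated mice were all below the controls for these 4 of the 18 genes, beside 7.34% of all genes, and Hk1, Gapdh and Eno1 were not separated with TMM or total counts as the scale. They were all above the controls for 3 of the 18, beside 4.53% of all genes. Aldoa and Pkm had log2 fold changes of -0.91 (SE 0.569, FDR 0.751) and -0.96 (SE 0.556, FDR 0.751), with their highest values, 21900 and 12200 scaled counts, in Scram+aPD-1 mouse 3. The 3 genes with all treated mice above the controls were Gpi1, Slc2a1 and Slc2a3. Gpi1, which encodes glucose-6-phosphate isomerase, had a log2 fold change of 1.99 (SE 0.654, FDR 0.747). The glucose transporter genes had 0.69 (Slc2a1, SE 0.476, FDR 0.751) and 1.08 (Slc2a3, SE 0.804, FDR 0.751). Gpi1 and Slc2a3 were above background in 1 of the treated mice and Slc2a1 in 2. Of the 9 genes above background in all 6 lanes none was positive. Without Scram+aPD-1 mouse 3, 8 of the 18 values were positive and the median was -0.04, beside 0.17 over all genes.

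Subunits of the mitochondrial respiratory chain, which passes electrons to oxygen, had small values in the same direction. Of 18 members 17 were negative, and the median was -0.47. Mouse 2 was below all 3 controls for 11 of them and above for none, beside 39.5% and 9.84% of all genes. Cox7c, a cytochrome c oxidase subunit, had 1760, 1180 and 4920 scaled counts against 757, 1070 and 1740 (log2 fold change -1.12, SE 0.697, FDR 0.751). Cox5a had a log2 fold change of -0.59 (SE 0.552, FDR 0.793), Cox6a1 of -0.33 (SE 0.417, FDR 0.847) and the complex I subunit Ndufb7 of -0.70 (SE 0.734, FDR 0.822), and all of these had their highest value in Scram+aPD-1 mouse 3. Without that mouse 8 of the 18 values were positive, and the median was -0.02. Uqcr10, a subunit of complex III outside that list, had 611, 521 and 783 scaled counts against 396, 417 and 433 (log2 fold change -0.61, SE 0.398, FDR 0.751), and its groups were separated.

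The 12 genes of the cell cycle and DNA replication list gave the lowest median of the lists, -0.69, with 9 values negative, and none of them was above background in all 6 lanes. Cenpa, the histone variant of centromeres and no member of that list, had 532, 373 and 516 scaled counts with Scram+aPD-1 and 144, 289 and 205 with ANT008+aPD-1. Its groups were separated, and its unadjusted p was the smallest of the lower genes in edgeR's model (log2 fold change -1.08, SE 0.325, FDR 0.747). Ccna2, the cyclin of S phase and G2, had 271, 287 and 287 against 144, 176 and 84.2 (log2 fold change -1.02, SE 0.334, FDR 0.747). Pole, a DNA polymerase catalytic subunit, had 199, 148 and 291 against 144, 97.1 and 84.2 (log2 fold change -1.05, SE 0.383, FDR 0.747), and Tk1, the thymidine kinase of dividing cells, from the nucleotide list, had 211, 202 and 221 against 180, 109 and 60.2 (log2 fold change -0.99, SE 0.351, FDR 0.747). All 4 had lower scaled counts than the controls in each treated mouse, and the last 3 were above background only in mouse 2 among them. For these 3 the background of mouse 1, 358 scaled counts, lay above every control, so that its place below them was not measured. The background of mouse 3, 149 scaled counts, lay below the controls of Ccna2 and Tk1 but not below all those of Pole. Mki67, the proliferation marker Ki-67, had 387, 323 and 156 scaled counts against 180, 216 and 84.2 (log2 fold change -0.83, SE 0.56, FDR 0.751) with overlapping groups, and Ccnd1 had a log2 fold change of -0.98 (SE 0.56, FDR 0.751). In mouse 2, 8 of the 12 listed genes were below all 3 controls and none above, beside 39.5% and 9.84% of all genes. Without ANT008+aPD-1 mouse 1 all 12 values were negative, and without Scram+aPD-1 mouse 3 the median was -0.77.

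**Figure D5:**
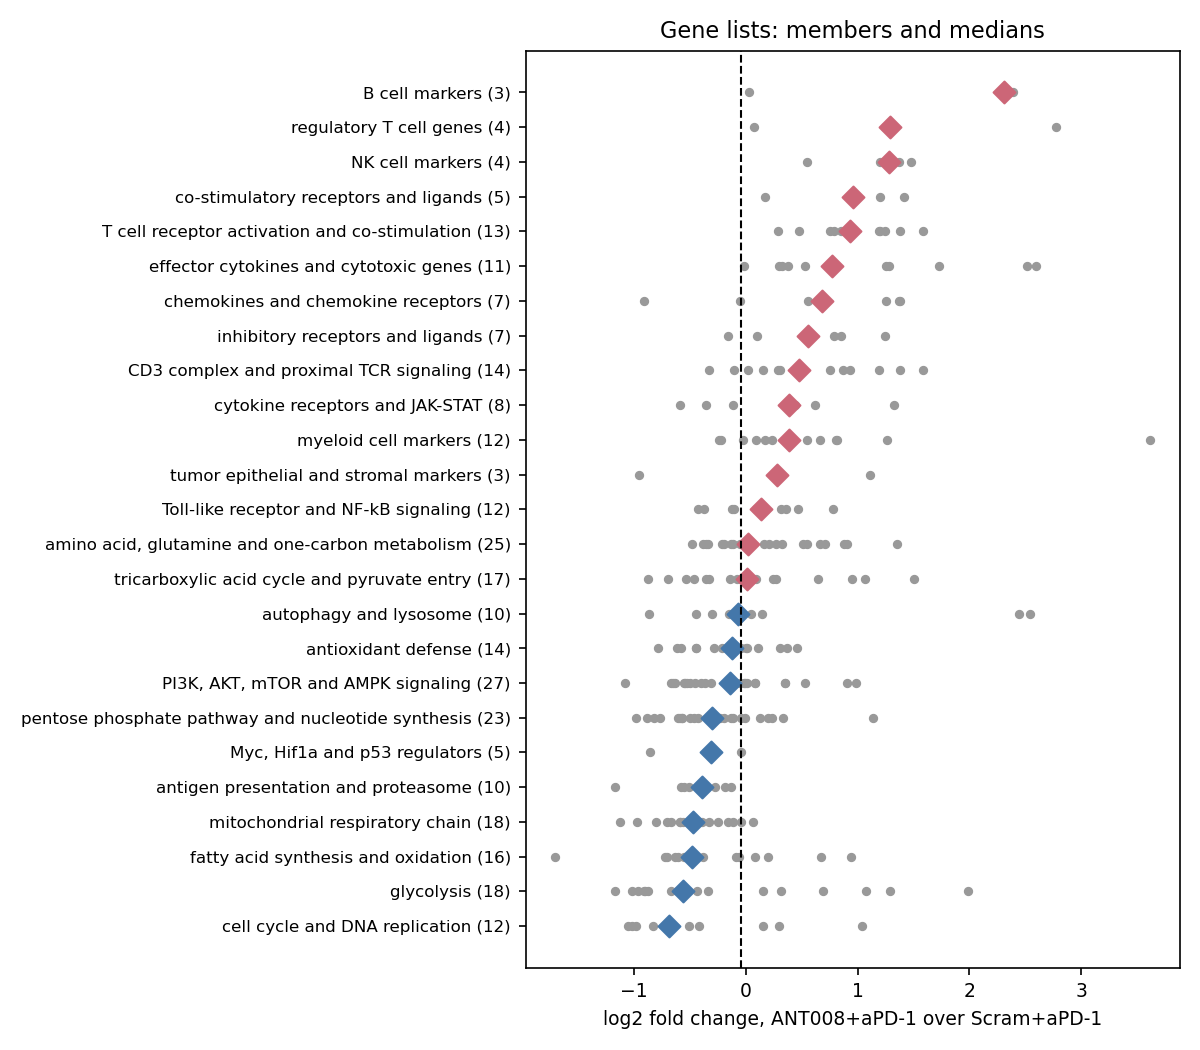
Log2 fold change (ANT008+aPD-1 over Scram+aPD-1) of the tested members (grey points) and the median (diamonds) of 25 gene lists, with the number of tested members in parentheses. The dashed line is the median of all 640 genes, -0.04, and diamonds are red above it and blue below. The medians run from 2.31 for 3 B cell markers, which were near background, to -0.69 for cell cycle and DNA replication, and no member passed an FDR of 0.1.

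The remaining lists had medians between -0.48 and 0.39. Of 10 genes of antigen presentation and the proteasome none had a positive value (median -0.39), with log2 fold changes of -0.38 (SE 0.561, FDR 0.892) for the class II gene H2-Aa and -0.28 (SE 0.615, FDR 0.937) for the class I gene H2-K1. The groups of both overlapped. Of 23 genes of the pentose phosphate pathway and nucleotide synthesis 5 were positive (median -0.30), and Adk, adenosine kinase, had 117, 167 and 164 scaled counts against 72.1, 81.3 and 84.2 (log2 fold change -0.88, SE 0.403, FDR 0.751). Of 27 genes of PI3K, AKT, mTOR and AMPK signaling 8 were positive (median -0.14), and Pik3cb, the beta catalytic subunit of PI3K, had 201, 130 and 307 against 72.1, 128 and 72.2 (log2 fold change -1.08, SE 0.398, FDR 0.747). Both were separated between the groups, Pik3cb only barely in mouse 2, and both were above background in mouse 2 alone among the treated mice. For both, the background of mouse 1, 358 scaled counts, lay above every control, so that its place below them was not measured. Myc, the growth regulator induced by T cell activation, had 712, 784 and 1200 against 288, 581 and 578 (log2 fold change -0.86, SE 0.49, FDR 0.751), and Hif1a had 1680, 1620 and 1680 against 865, 1810 and 1400 (log2 fold change -0.28, SE 0.341, FDR 0.847). None of the 5 Myc, Hif1a and p53 regulators had a positive value (median -0.31). Of 16 genes of fatty acid synthesis and oxidation 4 were positive (median -0.48). Scd1, the desaturase that makes oleate, had 206, 223 and 1380 against 180, 157 and 217 (log2 fold change -1.70, SE 0.99, FDR 0.751), so that its value rests on Scram+aPD-1 mouse 3. The medians were 0.02 for 25 genes of amino acid, glutamine and one-carbon metabolism, 0.01 for 17 genes of the tricarboxylic acid cycle, 0.14 for 12 Toll-like receptor and NF-kB genes, -0.12 for 14 antioxidant genes, -0.07 for 10 genes of autophagy and lysosomes, 0.39 for 8 cytokine receptor and JAK-STAT genes and 0.28 for 3 tumor and stromal genes.

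For several lower genes Scram+aPD-1 mouse 3 was the highest control and enlarged the difference. Car9, a carbonic anhydrase induced by hypoxia, had 446, 736 and 2750 scaled counts against 396, 490 and 445 (log2 fold change -1.54, SE 0.708, FDR 0.751), and Col4a1, a basement membrane collagen, had 277, 306 and 1060 against 216, 182 and 205 (log2 fold change -1.46, SE 0.657, FDR 0.751). In both the third control stood more than 3 times above the other controls, and Car9 overlapped between the groups. For Col4a1 the treated mice had scaled counts below the other controls too. Its value in ANT008+aPD-1 mouse 1 was under the background of that lane, 358 scaled counts. That background lay above all controls but the third, so the place of mouse 1 below those was not measured. Gcdh, a mitochondrial dehydrogenase of lysine breakdown, had 64.9, 80.3 and 152 against 36.0, 39.5 and 36.1 (log2 fold change -1.33, SE 0.531, FDR 0.751), and the values of mice 1 and 3 were below background. The remaining genes that were lower in each treated mouse and measured in every lane were Glud1, glutamate dehydrogenase (log2 fold change -0.34), Txn1, thioredoxin (-0.28), Psma7, a proteasome subunit (-0.33), and Cops6, a subunit of the COP9 signalosome (-0.62).

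Whether ANT008 acted differently with anti-PD-1 than with IgG was asked through the interaction of both agents. The IgG side of it holds the flagged lanes of mouse 1 in both IgG groups. No gene passed an FDR of 0.1 (0%, lowest FDR 0.993), and 9 of 640 genes had an unadjusted p below 0.05 (1.41%). That share is smaller than the threshold gives where no gene differs. Pole was one of the 9, with a difference of log2 fold changes of -1.20 (SE 0.508, FDR 0.993). Among the ANT008+aPD-1 mice Pole was above background in mouse 2 only. With IgG its log2 fold change for ANT008 was 0.15. For Cd3g the log2 fold change was 1.38 with anti-PD-1 and -0.08 with IgG, and for Klrk1 it was 1.48 and -0.04, but the standard errors of the 2 differences, 1.37 and 1.30 on the log2 scale, were nearly as large as the differences, and neither was detectable with 3 mice a group.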

How the data were processed

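The authors deposited raw counts of an nCounter Metabolic Pathways panel, with no background correction or scaling, and a panel definition from which target sequences were read. The study applied an FDR of 0.1 with a fold threshold to single genes and an analysis of variance with Dunnett's test to a pathway score. The normalization and the test behind that FDR are not given in the sources used here. For each lane the background was the mean plus 2 SD of 8 negative probes. Each lane was divided by its geometric mean of Dnajc14, Oaz1 and Ubb, the 3 of 20 housekeeping genes that exceeded background in all 12 lanes. A gene was tested where 3 or more lanes exceeded background, which kept 640 of 748 endogenous genes and left out 108. The 4 groups of 3 mice were fitted together with edgeR 4.0.16 (quasi-likelihood test) in R 4.3.3, with Benjamini-Hochberg adjustment and an FDR of 0.1, and the interaction was a contrast of the same fit. Log2 fold changes come from this fit. Limma 3.58.1 and DESeq2 1.42.0, other scalings, filters and backgrounds, and leaving out each mouse were alternatives. The statistics were tested on simulated data with known changes, which were larger than most of those reported here. The simulation added no background to the counts, so the effect of background in the shallow lanes was not tested. The files do not state that mice of 1 number share a batch, so the lanes were treated as independent. The p-values measure the spread between lanes, estimated over the 4 groups together. In the shallow lanes of ANT008+aPD-1 mice 1 and 3 that spread also holds counting error and background.

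The comparison, its genes and the gene lists were chosen with earlier results of these data known. A rule on list membership, unadjusted p and separation of the groups gave the genes that could be named, and the text gives a part of them, chosen after their values were seen, together with Ctsw, Hk1, Slc2a1, Slc2a3, Uqcr10, Eno1, Cops6, Psma7 and other genes added for their separation or their place in a pathway. All lists were described by counts and medians, with no test. Intervals on shares of counts cover counting error only. Some items are not reported here.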

Additional observations from a re-analysis of the deposited data

How the results depend on the processing

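No gene passed an FDR of 0.1 in either direction or in the interaction, in the edgeR analysis or under any alternative, with these exceptions. DESeq2 called 5 genes higher. Leaving out each mouse in turn gave 0 to 33 genes higher, 0 to 2 lower and 0 to 1 in the interaction, and every call came from the fit without ANT008+aPD-1 mouse 2, the deep lane. Of those 33 genes 25 were above background in neither of the remaining lanes of the group and 1 in both, and the 2 lower genes were Ccna2 and Cenpa. The mouse numbers did not pair the lanes of both groups (correlations of deviations -0.25, 0.28 and 0.47), and with the replicate block 0 genes were higher and 0 lower, with 34 and 17 at an unadjusted p below 0.05, and 0 in the interaction. Scaling by positive controls moved the median of all genes to -3.56, no scaling to -2.88, total endogenous counts to 0.14 and background subtraction to -0.37, so single genes are given here relative to the median of each setting, which puts Prf1 at 0.02, Pdcd1 at 0.13 and Foxp3 at 0.11 in the analysis reported above. Positive values numbered 392 of 640 with total counts and 177 with background subtracted, beside 306. With voom and sample weights 9 of 18 values were positive for both glycolysis (median -0.06) and the respiratory chain (0.02), beside 0.26 over all genes.

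Of the 80 genes given with a fold change 19 changed sign under some alternative, each value taken relative to the median of all genes in its setting. With positive control scaling Pdcd1lg2 was at -0.23, Cd274 at 0.42, Ccl2 at 0.03 and Hif1a at 0.23, and without scaling at -0.07, 0.5, 0.11 and 0.24. Ccl2 was at 0.01 with total counts, 0.03 with a filter of 6 lanes, 0.09 with the block and 0.18 over genes measured in the 3 ANT008+aPD-1 lanes. Prf1 was at -0.03 with all housekeeping genes, and with no filter Pdcd1 was at -0.05, Foxp3 at -0.07 and Prf1 at -0.16. With background subtracted Cd40lg was at -0.08, Cd274 at 0.1, Ccl2 at 0.35, Cd68 at 0.08, Cox6a1 at 0.11, Hif1a at 0.12, H2-Aa at 0.08, H2-K1 at 0.2 and Txn1 at 0.18. Foxp3 was at -0.03 with limma and -0.24 with voom, which put Gzmb at -0.34. With mouse 2 alone in its group Zap70 was at -0.2, Pdcd1 at -0.09, Cd274 at 0.85, Ccl2 at 0.54, Gapdh at 0.12, Eno1 at 0.11, Hif1a at 0.48, H2-Aa at 0.52, Glud1 at 0.06, Txn1 at 0.16 and Psma7 at 0.05. With mouse 2 against Scram+aPD-1 mice 1 and 2, an alternative chosen after seeing the data, Cd274 was at 0.73, Ccl2 at 0.29, Gapdh at 0.06, Eno1 at 0.03, Hif1a at 0.34, H2-Aa at 0.2, H2-K1 at 0.02, Glud1 at 0.07 and Txn1 at 0.07. Over the fits that left out 1 mouse, the ranges were -0.35 to 0.31 for Ccl2, -0.87 to 0.28 for Cd274, -0.15 to 0.44 for Cd40lg, -0.44 to 0.25 for Cd68, -0.15 to 0.57 for Foxp3, -0.31 to 1.24 for Gzmb, -0.92 to 0.09 for H2-Aa, -0.73 to 0.1 for H2-K1, -0.7 to 0.04 for Hif1a, -0.19 to 0.53 for Pdcd1, -0.36 to 0.73 for Prf1 and -0.42 to 0.7 for Zap70. The causes were not tested. Depth limits the ANT008+aPD-1 group most, since 2 of its 3 lanes measured 156 and 357 genes.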
